A study of Mus musculus with 4 samples.

Results

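Genes that carry cells through G2 and mitosis were read in brains of Sox4/Sox11 double-knockout mouse embryos and their controls. The set holds 48 genes named by symbol: G2/M cyclins and kinases, spindle checkpoint, kinetochore, condensin and cytokinesis genes, with the kinesin motors left out except Cenpe, a motor of the kinetochore. A probe set belonged to the set when its symbol in the array's annotation was exactly 1 of these names, which gave 114 of 45037 probe sets and 47 of 18193 genes. Ccnb1, which encodes cyclin B1, has no probe set listed under its symbol and was not analysed here. All 47 genes had at least 1 probe set bright enough to be tested, and 97 of the 114 probe sets were.

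The tested embryos carried floxed alleles of both Sox4 and Sox11 (flox/flox for each) and the Brn4::Cre driver, in which recombinase expression follows Brn4 (also called Pou3f4) (double knockout, 2 arrays). The controls carried the same floxed alleles and no Cre is named for them (control, 2 arrays), although the series' design text calls them wild type. All were whole brains taken at E14.5 (embryonic day 14.5) from mice of mixed 129SvJ and C57Bl/6J strains, and the title's spinal cord is not the tissue of these labels. Effects of Cre itself and of the deletions cannot be told apart in this design. The deletion reaches only cells in which the driver is or was active and cells descended from them. The labels call the arrays biological replicates without giving embryos per array or sex, so the array-to-array spread may be technical. A p-value or SE here reflects that spread only in part. The fit also pulls each variance toward a trend with signal over all tested probe sets.

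The mitotic programme is switched on once per cell cycle. Cyclins A and B activate Cdk1, condensin compacts chromosomes, kinetochores tie them to the spindle, and the spindle checkpoint holds back the anaphase-promoting complex until all are attached. In the embryonic brain at this stage, radial glia and intermediate progenitors divide and their neuronal daughters leave the cycle. Most of these transcripts are made in G2 and M, so they mark dividing cells. In a whole brain, fewer cells of a type and less RNA per cell cannot be told apart.

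Values are MAS5 signals, a linear brightness per probe set that the authors had scaled to the same mean on every array. Changes are double knockout minus control on the scale of log2(signal + 16), with the brightest tested probe set standing for a gene. "Rose" and "fell" refer to an adjusted p under 0.05 in limma, fitted over all 27022 probe sets above the signal filter. Every adjusted p below is from that fit with n = 2 arrays per group, unless another setting is named with it. An exact permutation of a single value over 2 against 2 arrays cannot give a two-sided p below 0.333. All 6 tested Sox11 probe sets fell, whereas of the 6 tested for Sox4 4 fell, 1 rose and 1 did not pass.

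As a set, these mitotic genes were higher in the double-knockout brains, and the set was chosen with earlier results of these data known. The 94 other mitotic genes read further below had a median log2 change of 0.20, with 21 that rose and 4 that fell. Among the 47 there were 34 that rose, 0 that fell and 13 that did not pass, against 16.3% of 12489 genes that rose and 11.0% that fell over the whole array. At an unadjusted p under 0.05 the number that fell was also 0. The median log2 change was 0.51, beside 0.06 over all genes tested. Rises were moderate: the 34 genes were 1.25-fold to 1.85-fold higher by group means, 15 of the 47 reached 1.5-fold and 0 reached 2-fold. Both knockout arrays lay above both control arrays for 41 of the 47 genes (39.8% of all genes), below them for 1, and overlapped for 5. Over all 12489 genes these numbers were 4968, 3392 and 4129. Summed over the 47 genes, the signal was 141514 and 140848 on the knockout arrays, against 102313 and 95162 on the control arrays.

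The arrays within a group also differed. Control 1 read higher than control 2 for 41 of the 47 genes, while knockout 1 exceeded knockout 2 for 23. Relative to the control mean, the median gene stood at log2 0.47 on knockout 1, 0.49 on knockout 2, 0.06 on control 1 and -0.06 on control 2. Leaving out knockout 1 left 21 rises, knockout 2 left 20, control 1 left 32 and control 2 left 24. Without a trend of the prior variance with signal it was 14: Ccna2, Cdc25b, Aurka, Birc5, Cdc20, Cenpf, Spc25, Hmmr, Prc1, Anln, Smc4, Ncaph, Top2a and Mki67. The median log2 change was 0.45 to 0.57 with an array left out. The all-gene shares above belong to the main fit of all arrays. Those of the reduced fits are not given, so no loss of calls is read as particular to the members or to a list below.

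**Figure D1:**
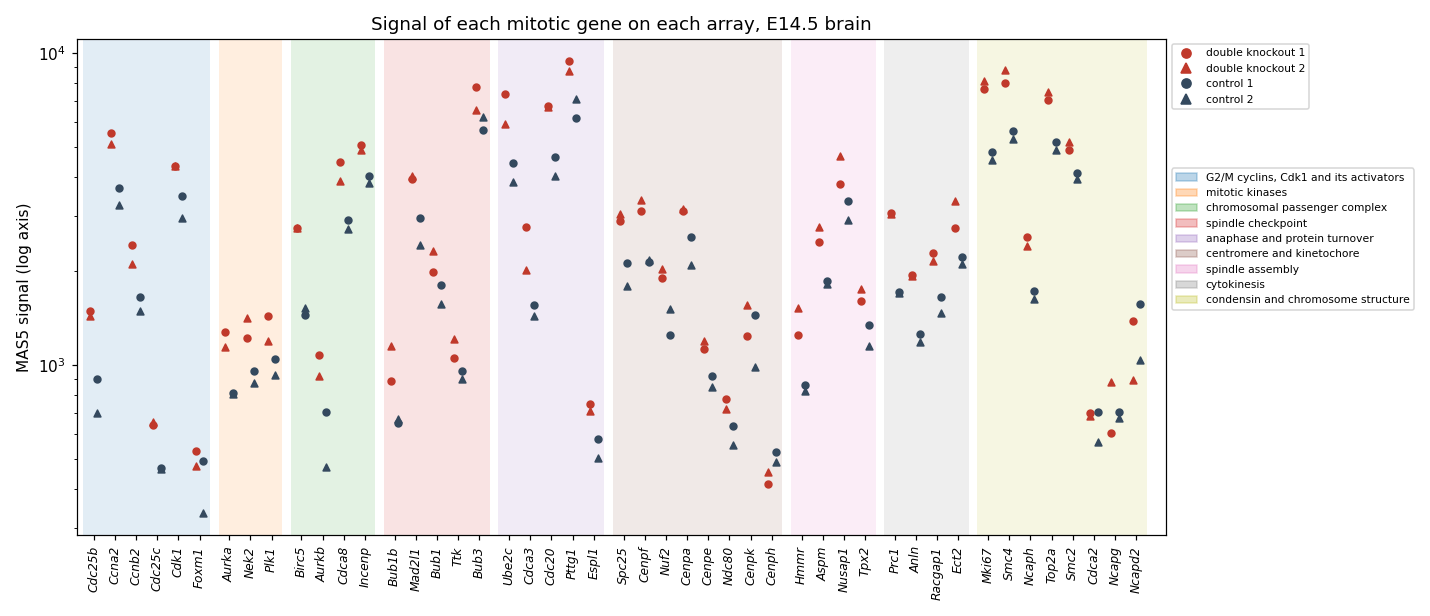
MAS5 signal (log axis) of each of the 47 mitotic genes at its brightest probe set on the 4 arrays, double knockout in red at the left of each gene and control in dark blue at its right, circles for replicate 1 and triangles for replicate 2, shaded by role. The red points lie above both blue points for 41 genes, and Cenph, at the right of the kinetochore block, is the gene with both red points below.

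Markers of other cell types moved in the same arrays, in which 16.3% of all genes tested rose and 11.0% fell. Of 16 microglia and macrophage markers tested, 16 rose, with a median log2 change of 1.54 and a summed signal of 35974 and 33977 in knockouts, against 11666 and 12599 in controls. No marker was at 0 on any array, and the lowest signal was 157.7. Intermediate progenitor markers rose for 5 of 8 and fell for 0 (median 0.63, summed 30824 and 29732 in knockouts, 22770 and 19636 in controls), led by Eomes (1.08), a transcription factor of these cells, Gadd45g (0.83), Mfng (0.75) and Neurog2 (0.68). Of 13 radial glia and progenitor markers 5 rose and 1 fell (median 0.22, summed 98945 and 97558 in knockouts, 90563 and 83699 in controls). Of 12 mesenchymal and vascular markers 8 rose and 0 fell (median 0.40, summed 49339 and 49844 in knockouts, 36476 and 38882 in controls). Fewer of these 12 passed with any single array left out. Their median was 0.34 without control 1 and 0.43 without control 2, and lay between these without either knockout. Neuronal markers went down for 9 of 15 and up for 2 (median -0.38, summed 184190 and 178325 in knockouts, 217481 and 228074 in controls). Of 3 erythroid markers tested 0 rose and 0 fell (median -0.05, summed 4561 and 4080 in knockouts, 3652 and 4058 in controls), and at an unadjusted p under 0.05 also 0. With single arrays left out, 13 or 14 microglia markers, 2 to 5 radial glia markers (2 without knockout 1, 3 without control 2) and 4 or 5 intermediate progenitor markers rose. The part of these cell types in the mitotic result was not tested.

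Promoters were set beside the values because many G2/M genes are known to be controlled through the cell cycle homology region (CHR), an element bound by the DREAM and MuvB complexes, and through CCAAT boxes bound by NF-Y. The windows, from RefSeq on GRCm38.p6, run from 250 bases before to 50 bases after each gene's start and were matched by symbol for 40 of the 48 members, Ccnb1 included. TTTGAA or TTCGAA, read on both strands, occurred in 29 of the 40 members (72.5%), beside 21.7% of 27025 genes with a window. For CCAAT these were 32 (80%) and 41.1%, for both together 27 (67.5%) and 9.65%. An E2F site, searched as TTTCCCGC, TTTCGCGC, TTTGCCGC or TTTGGCGC, was found in 3 members (7.5%) and 2.6% of all, and none of the motifs lies inside another. Among the members that rose, 21 of 28 with a window held the CHR letters, and among the others, Ccnb1 included, 8 of 12. In 27 of the 29 genes the match nearest the start began within 50 bases of it, and in most of the 29 it lay after the start. Since the windows end 50 bases after the start, any match after it falls within that distance. The share over all genes with a match was not taken. A match is a run of letters and not a measured site.

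The 150 bases before the start are shown for the 4 genes that rose and have a single window, both motifs in these bases and none of the bases inside the annotated gene, 5′ to 3′ on the gene's strand, with CHR and CCAAT letters (either strand) in capitals. Ube2c lies on the plus strand at chr2:164769779-164769928, Cdc20 on the minus strand at chr4:118437344-118437493, Cdk1 on the minus strand at chr10:69352913-69353062 and Smc2 on the plus strand at chr4:52439071-52439220.
Ube2c: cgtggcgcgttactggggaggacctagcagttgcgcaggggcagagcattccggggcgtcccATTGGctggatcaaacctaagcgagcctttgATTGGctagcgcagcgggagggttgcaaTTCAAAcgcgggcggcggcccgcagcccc
Cdc20: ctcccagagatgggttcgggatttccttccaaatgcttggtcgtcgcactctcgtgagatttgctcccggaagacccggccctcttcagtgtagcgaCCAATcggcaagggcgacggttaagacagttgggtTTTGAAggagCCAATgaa
Cdk1: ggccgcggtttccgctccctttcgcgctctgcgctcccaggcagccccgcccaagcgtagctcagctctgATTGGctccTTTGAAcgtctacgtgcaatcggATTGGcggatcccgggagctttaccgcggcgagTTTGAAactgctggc
Smc2: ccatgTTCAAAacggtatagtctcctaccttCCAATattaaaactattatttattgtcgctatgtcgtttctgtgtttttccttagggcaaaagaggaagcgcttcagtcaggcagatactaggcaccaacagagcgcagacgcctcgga
In the printed bases, Ube2c, Cdc20 and Cdk1 each hold 2 CCAAT matches, and Smc2 holds 1. The CHR letters nearest the start begin 29 bases before it in Ube2c, 18 in Cdc20 and 15 in Cdk1. Those of Smc2 in this stretch lie at its far end, and its match nearest the start begins 26 bases after it, outside the printed bases. Top2a and Mki67 also rose and hold both motifs there, but 10 and 71 of their 150 bases lie inside the annotated gene, so they are not printed.

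Among the cyclins, Cdk1 and its activators, 5 of 6 genes rose (median log2 change 0.50). Cdc25b, a phosphatase that switches on Cdk1 and acts in neural progenitors, had signals of 1484.5 and 1432.5 in knockouts, against 902 and 703 in controls. The groups did not overlap, and its log2 change of 0.86 ± 0.15 (SE, adjusted p = 0.00239) was the second of the whole set. Ccna2, cyclin A2, read 5540.1 and 5094.5 in knockouts and 3691 and 3255 in controls (0.61 ± 0.10, adjusted p = 0.0017). Ccnb2, cyclin B2, read 2421 and 2111.5 in knockouts and 1645.5 and 1485 in controls (0.53 ± 0.12, adjusted p = 0.00985). Cdk1, the kinase that drives entry into mitosis, read 4334 on both knockout arrays, against 3488 and 2953 on the controls (0.43 ± 0.10, adjusted p = 0.0131). The spread of Cdk1 thus lay in the controls, whose values were both below the knockouts.

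The related phosphatase gene Cdc25c changed by 0.47 ± 0.15 (adjusted p = 0.0495), and its dimmer probe set by 0.91 (adjusted p = 0.00356). Foxm1, a transcription factor that activates many genes of this set, was not called (0.29 ± 0.21, adjusted p = 0.339). Its signals were 529.9 and 475 in knockouts, against 493 and 335 in controls, so the groups overlapped, and its second tested probe set had the opposite sign (-0.19). Ccna2 and Cdc25b kept their calls in the 4 fits with an array left out, whereas Cdc25c passed in 0 of them (0.45 to 0.48). Cdk1 passed only without control 1 (0.43 without knockout 1, 0.43 without knockout 2, 0.31 without control 2), and Ccnb2 was lost without knockout 1 (0.43). Cdc25c was also lost with the replicate number as a block (0.47, adjusted p = 0.0587).

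Of 3 mitotic kinases with no other place here, 2 rose. Aurka, which matures centrosomes and builds the spindle, read 1270.5 and 1137 in knockouts, against 810.1 and 804 in controls (0.57 ± 0.13, adjusted p = 0.0116). Nek2, a kinase of centrosome separation, read 1215 and 1410.4 in knockouts and 957 and 873 in controls (0.51 ± 0.13, adjusted p = 0.0203), and its 3 tested probe sets all lay higher in both knockouts. Plk1, which acts from mitotic entry to cytokinesis, did not pass (0.41 ± 0.14, adjusted p = 0.058) although its groups were separate, at 1435 and 1189.5 in knockouts and 1041 and 925 in controls. It passed with median centring (0.45, adjusted p = 0.0283) and with the replicate block (0.41, adjusted p = 0.0388). Aurka was lost without knockout 1 (0.49), and Nek2 without knockout 2 (0.40) or control 2 (0.45).

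All 4 genes of the chromosomal passenger complex rose (median 0.67). This complex corrects faulty attachments at the centromere and later works at the midzone. Birc5 (survivin), a subunit that targets the complex, read 2746 and 2744.5 in knockouts, against 1446 and 1525 in controls. That is 1.85-fold by group means, the top value of the 47 genes (log2 change 0.88 ± 0.10, adjusted p = 0.000354). Its kinase Aurkb read 1078 and 923 in knockouts and 705 and 469 in controls (0.78 ± 0.19, adjusted p = 0.0159). The second Aurkb probe set gave 0.74 (adjusted p = 0.00564). Cdca8 (borealin) rose at all 3 of its probe sets, by 0.56 at the brightest, 0.79 and 0.55. Incenp, the scaffold of the complex, rose at its brightest probe set, with 5062 and 4874 in knockouts and 4017 and 3818 in controls (0.34 ± 0.09, adjusted p = 0.0175), and at a dimmer one (0.58, adjusted p = 0.00693). Whether these 2 probe sets differ was not tested. Without knockout 1, knockout 2 or control 2 the calls of Aurkb (0.67, 0.89 and 0.49) and of Incenp at its brightest probe set (0.31, 0.37 and 0.31) were lost.

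Of the 5 spindle checkpoint genes 2 rose (median 0.35). At the brightest probe set all 5 lay higher in both knockouts, as did 39.8% of all genes tested. Mad2l1, which encodes the checkpoint's inhibitor of Cdc20, read 3933.5 and 4042 in knockouts, against 2960.1 and 2414 in controls (0.57 ± 0.11, adjusted p = 0.00494). Bub1b (BubR1), which acts beside it, read 884 and 1146.5 in knockouts and 650.5 and 670.0 in controls (0.60 ± 0.16, adjusted p = 0.0203). The kinase genes Bub1 (0.35 ± 0.12, adjusted p = 0.0667) and Ttk (0.28 ± 0.13, adjusted p = 0.162) did not pass. The dimmer tested probe set of Ttk had a change of -0.19, with overlapping groups. Bub3, a partner of Bub1 and BubR1, was the brightest of the 5 and did not pass (0.26 ± 0.10, adjusted p = 0.0809), with 7753 and 6547 in knockouts and 5666.5 and 6233 in controls. Its other 2 tested probe sets had changes of -0.11 and -0.30, each with both knockouts below both controls, so no direction is given for Bub3. Mad2l1 was lost without knockout 2 (0.55) and Bub1b without knockout 2 (0.41) or control 2, where a different probe set became its brightest (0.22). Bub1 passed without control 1 (0.45), and Bub3 without knockout 2 (0.38).

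Among genes of anaphase and protein turnover 4 of 5 rose (median 0.63). Cdc20, the activator of the anaphase-promoting complex (APC/C), read 6741 and 6688 in knockouts, against 4655 and 4046 in controls (0.63 ± 0.09, adjusted p = 0.00109). Both of its other probe sets also rose (0.53 and 0.89). Ube2c, the ubiquitin-conjugating enzyme of the APC/C, read 7376 and 5897 in knockouts and 4442 and 3849 in controls (0.67 ± 0.12, adjusted p = 0.00276). These 2 genes are among those whose promoters are printed above. Pttg1 (securin), an APC/C target that restrains separase, was the brightest of the 47 in controls, at 6167 and 7109.6, against 9394 and 8772 in knockouts (0.45 ± 0.09, adjusted p = 0.00509).

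Cdca3, a gene that triggers mitotic entry, read 2763.5 and 2019.5 in knockouts and 1558 and 1436 in controls (0.65 ± 0.15, adjusted p = 0.01), with knockout 1 well above knockout 2. Espl1, which encodes separase, the enzyme that cuts cohesin, did not pass (0.42 ± 0.15, adjusted p = 0.0705), at 749 and 709 in knockouts against 579 and 501 in controls. Without knockout 1 neither Cdca3 (0.43) nor Pttg1 (0.40) passed. Espl1 passed with median centring (0.47, adjusted p = 0.0409).

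Of 8 kinetochore and centromere genes 4 rose and 4 did not pass (median 0.41). Spc25 and Nuf2, subunits of the Ndc80 complex that grips microtubules, both rose. Spc25 read 2886.5 and 3036 in knockouts, against 2118 and 1789.5 in controls (0.60 ± 0.11, adjusted p = 0.00414). Nuf2 read 1905 and 2029 in knockouts and 1243 and 1511 in controls (0.52 ± 0.13, adjusted p = 0.0153). Ndc80 itself, dim at 779 and 723 in knockouts and 636 and 551 in controls, did not pass (0.33 ± 0.15, adjusted p = 0.137). Cenpf, a large protein of the outer kinetochore, read 3107.5 and 3378 in knockouts and 2135 and 2167 in controls (0.59 ± 0.10, adjusted p = 0.00242). Cenpa, the histone variant that marks centromeres, read 3117 and 3164 in knockouts and 2564.5 and 2089.8 in controls (0.44 ± 0.11, adjusted p = 0.0208).

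Cenpe, the kinetochore motor, lay just outside the threshold (0.38 ± 0.13, adjusted p = 0.0544), and it passed with quantile normalization (0.39, adjusted p = 0.0494) and with median centring (0.42, adjusted p = 0.0405). The inner kinetochore genes Cenph and Cenpk, part of the constitutive centromere network, gave no call. Cenph was the gene of the set with both knockouts below both controls, at 415 and 454.5 in knockouts, against 524 and 486 in controls (-0.21 ± 0.17, adjusted p = 0.399). Cenpk overlapped between groups, at 1237 and 1553 in knockouts and 1445 and 987 in controls (0.21 ± 0.18, adjusted p = 0.437). Nuf2 was lost without knockout 1 (0.56), knockout 2 (0.47) or control 1 (0.38), and Cenpa without knockout 1 (0.45), knockout 2 (0.43) or control 2 (0.29). Averaged over their probe sets, Spc25 (0.27) and Cenpf (0.34) did not pass.

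**Figure D2:**
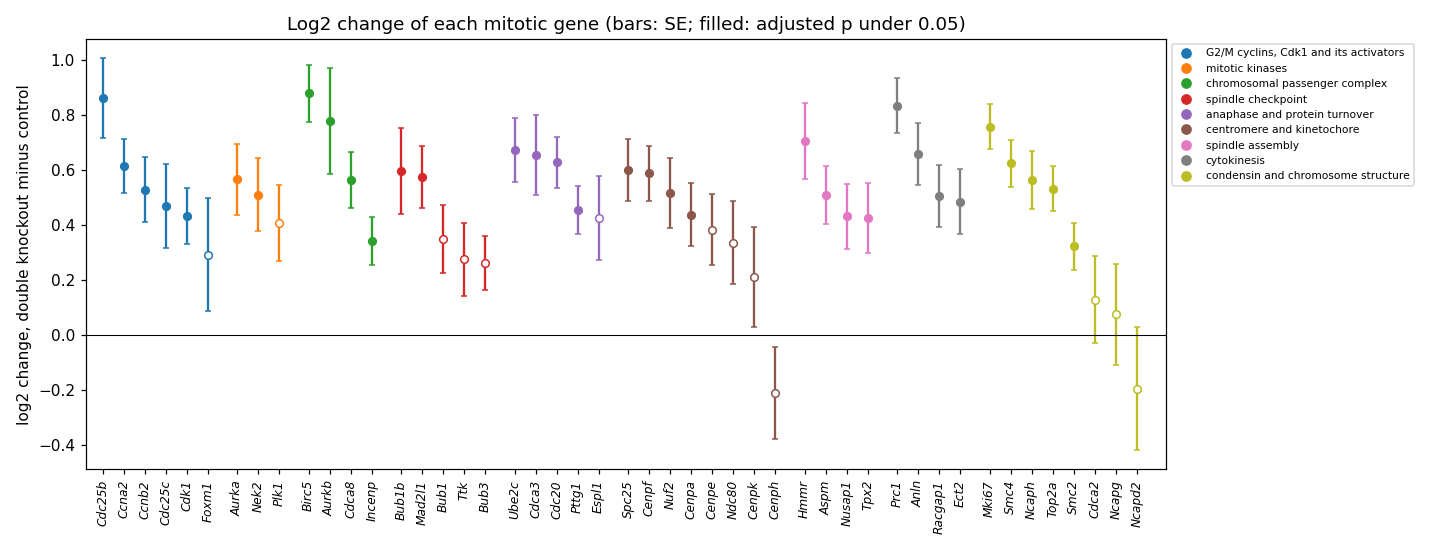
Log2 change, double knockout minus control, of the 47 mitotic genes by role, with bars for the SE and filled points for an adjusted p under 0.05. The 34 filled points lie between 0.32 and 0.88, and the 13 open points between -0.21 and 0.42.

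All 4 spindle assembly genes rose (median 0.47). Hmmr, a microtubule-binding protein of spindle poles, read 1247 and 1526 in knockouts, against 859.6 and 821.5 in controls (0.70 ± 0.14, adjusted p = 0.00526). Aspm, a spindle pole protein whose human gene is mutated in primary microcephaly, read 2478 and 2775 in knockouts and 1863 and 1813 in controls (0.51 ± 0.11, adjusted p = 0.00738). Nusap1, which bundles spindle microtubules, rose by 0.43 ± 0.12 (adjusted p = 0.0242), and Tpx2, which activates Aurora A, by 0.43 ± 0.13 (adjusted p = 0.035). In all 4 genes knockout 2 read higher than knockout 1, and without knockout 2 the number that passed was 0, with Hmmr at 0.56, Aspm at 0.43, Nusap1 at 0.29 and Tpx2 at 0.36. Nusap1 (0.33) and Tpx2 (0.31) were also lost without control 2, and Tpx2 without knockout 1 (0.49). Averaged over their probe sets, Hmmr (0.50) and Aspm (0.12) did not pass, and 1 of the dimmer Aspm probe sets had a change of -0.29.

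All 4 cytokinesis genes rose as well (median 0.58). Prc1, which bundles the microtubules of the central spindle, read 3059.6 and 3041 in knockouts, against 1714 and 1694 in controls, with little spread in either group (0.83 ± 0.10, adjusted p = 0.000363). Its second probe set gave the same size of change (0.83, adjusted p = 0.00142). Anln (anillin), a scaffold of the contractile ring, read 1939.5 and 1928 in knockouts and 1253 and 1186 in controls (0.66 ± 0.11, adjusted p = 0.00248). Ect2, the exchange factor that activates RhoA at the division plane, read 2738 and 3362 in knockouts and 2224 and 2106 in controls (0.48 ± 0.12, adjusted p = 0.0146). Racgap1, its partner at the central spindle, rose by 0.50 ± 0.11 (adjusted p = 0.00995). Ect2 was lost without knockout 2 (0.34) and Racgap1 without knockout 1 (0.46).

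Of 8 genes of condensin and chromosome structure 5 rose and 3 did not pass (median 0.43). Mki67, the nuclear protein by which cycling cells are usually counted, read 7667 and 8107.5 in knockouts, against 4796 and 4522 in controls (0.76 ± 0.08, adjusted p = 0.000211, the smallest of the set). Top2a, which untangles sister DNA, read 7074 and 7504 in knockouts and 5184.5 and 4888 in controls (0.53 ± 0.08, adjusted p = 0.00148). Smc4, an ATPase shared by condensins I and II, read 8021.5 and 8833 in knockouts and 5639 and 5281 in controls (0.62 ± 0.08, adjusted p = 0.000717), and all 3 of its probe sets rose. Smc2, the other shared ATPase, rose at its brightest probe set, with 4902 and 5189 in knockouts and 4112 and 3949 in controls (0.32 ± 0.09, adjusted p = 0.0225).

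Of the subunits specific to condensin I, 1 of 3 rose. Ncaph, which closes the ring, read 2576 and 2399.8 in knockouts and 1727 and 1630.3 in controls (0.56 ± 0.11, adjusted p = 0.00429). Ncapg (0.08 ± 0.18, adjusted p = 0.805) and Ncapd2 (-0.19 ± 0.22, adjusted p = 0.573) did not pass, and both overlapped between groups. Ncapd2 read 1381 and 895 in knockouts, against 1571 and 1033.5 in controls, so its 2 arrays of either group differed by more than the groups did. Whether Ncaph differs from these 2 was not tested. Cdca2, a phosphatase partner on anaphase chromatin, did not pass (0.13 ± 0.16, adjusted p = 0.604). Its dimmer tested probe set did not pass either (0.42, adjusted p = 0.102), although both knockouts lay above both controls there. Smc2 passed in 0 of the 4 fits with an array left out (0.28 to 0.36), nor did it pass when averaged over its 5 probe sets (0.04), of which 3 had a positive and 2 a negative change. Top2a averaged over 2 tested probe sets did not pass (0.26).

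Among the 13 genes that did not pass, 11 had a positive change, beside 7090 of all 12489 genes tested, called or not. In 7 of the 13 the groups were separate with the knockouts above, beside 39.8% of all genes. An unadjusted p under 0.05 was found for 6: Plk1, Bub1, Bub3, Espl1, Cenpe and Ndc80. The share of all genes under that p was not taken. The 13 genes were dimmer as a set: 9 of the 13 had a control mean under 1000, against 7 of the 34 that rose. The median SE was 0.15 for these 13 and 0.11 for the 34. The fit itself ties the SE to signal through its variance trend, here and for the probe sets below. Why these genes did not pass was not tested. Over all 97 tested probe sets, 49 rose (11.7% of all probe sets tested), 0 fell (11.6%) and 48 did not pass, and with single arrays left out 26 to 52 rose and at most 1 fell. Of the 50 that were not the brightest of their gene, the 8 with a control mean of at least 1000 gave 6 rises and a median change of 0.52, and the 42 dimmer ones gave 9 rises and a median of 0.31. The median SE was 0.12 for the 8 and 0.22 for the 42. In 24 of 32 genes with several tested probe sets, all had a change of the same sign. The 8 with mixed signs were Foxm1, Bub3, Ttk, Cenpk, Spc25, Aspm, Smc2 and Top2a.

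**Figure D3:**
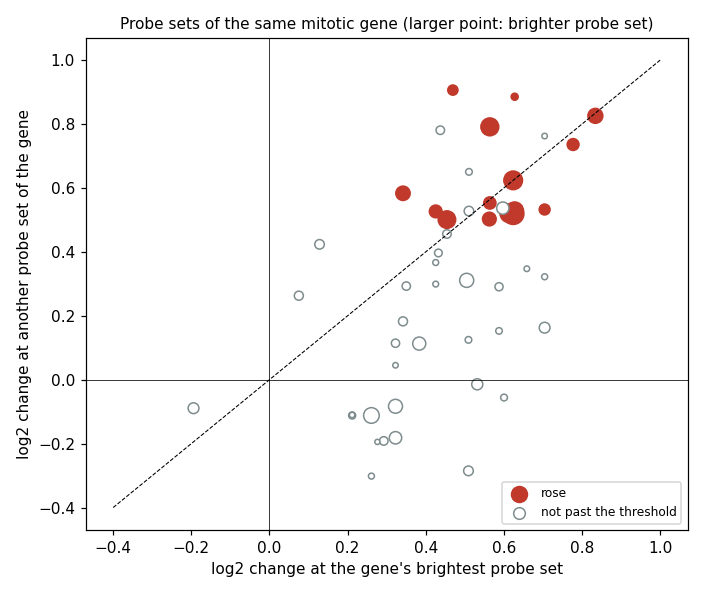
Log2 change (double knockout minus control) at 50 further tested probe sets, on the y axis, against that at the brightest probe set of the same gene, on the x axis. Red points rose, open points did not pass, larger points are brighter and the dashed line marks equal changes; the 15 red points all lie above 0.3 on both axes, and the points below 0 on the y axis are open.

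Other genes of the mitotic pathway were read from 4 lists that hold no member. Together 21 of 94 rose and 4 fell, beside 16.3% and 11.0% of all 12489 genes tested, with a median log2 change of 0.20. The count that rose was 10 without knockout 1 and 9 without knockout 2. Genes of the cell cycle engine and spindle outside the set rose for 11 of 34 and fell for 3 (median 0.30; 4 rose without knockout 2, 5 without knockout 1, and at most 1 fell with any array left out). Those with the largest rises were Depdc1b (1.07), Cdkn3 (0.83), a phosphatase of Cdk proteins, Melk (0.69), a kinase of progenitors, and Pbk (0.67), a mitotic kinase. Cdc25a (-0.62), the phosphatase that acts mainly at the G1/S step, Lin9 (-0.44), a MuvB subunit, and Numa1 (-0.35), a spindle pole protein, fell. Depdc1b was lost without knockout 1 (0.88), knockout 2 (1.27) or control 2 (0.61), and Cdkn3 (0.69) and Melk (0.58) without knockout 2. Cdc25a was lost without knockout 1 (-0.51) or control 1 (-0.46), Numa1 without knockout 2 (-0.26), control 1 (-0.35) or control 2 (-0.35), and Lin9 in all 4 left-out fits (-0.50 to -0.37).

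Of 30 other kinetochore and centromere genes 5 rose and 1 fell (median 0.26), beside 16.3% and 11.0% of all genes. The part of this list that rose was thus near the share over all genes. Spc24 (0.77), the fourth subunit of the Ndc80 complex, and Zwint (0.51), which binds the outer kinetochore, kept their calls in the 4 left-out fits. Oip5 (0.79), Cenpm (0.74) and Zwilch (0.65) were lost without knockout 1 (0.88, 0.84 and 0.74), knockout 2 (0.70, 0.64 and 0.56) or control 2 (0.58, 0.51 and 0.38). Cenpc1 (-0.37), which bridges centromeric chromatin and the kinetochore, fell, and its call was lost without knockout 1 (-0.22) or control 2 (-0.30). The count that rose was 2 without either knockout or control 2, and 10 without control 1.

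The list of APC/C subunits and regulators had a median log2 change of 0.02. Beside 16.3% of all genes that rose and 11.0% that fell, 2 of these 17 rose, Anapc16 (0.36) and Anapc13 (0.35), and 0 fell. At an unadjusted p under 0.05, Anapc1 (-0.21, adjusted p = 0.111) was the gene with a negative change. Anapc16 was lost without knockout 1 (0.34) and Anapc13 without knockout 2 (0.31). For cohesin and condensin II the median was 0.10, and 3 of 13 rose and 0 fell, beside the same shares of all genes. They were Ncapg2 (0.65), a subunit of condensin II, Cdca5 (0.63) and Stag2 (0.42), a cohesin subunit. Cdca5 holds cohesin on chromatin and is itself cell cycle regulated. Cdca5 was lost without knockout 1 (0.62) or knockout 2 (0.64).

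DNA replication genes, which act in S phase, rose for 9 of 39 and fell for 2 (median 0.19), beside 16.3% and 11.0% of all genes. The leading rises were those of Mcm2 (0.63), a helicase subunit, Rpa2 (0.51) and Rpa1 (0.50), which coat single-stranded DNA, and Uhrf1 (0.50), which couples replication to DNA methylation. Cdc7 (-0.30) and Mcm7 (-0.27) fell, and Cdc7 passed in 0 of the 4 left-out fits (-0.35 to -0.26) while Mcm7 was lost without knockout 2 (-0.22), control 1 (-0.26) or control 2 (-0.27). Mcm2 was lost without knockout 1 (0.54), and Rpa2 (0.46) and Uhrf1 (0.44) without knockout 2. Leaving out knockout 1 left 5 rises, knockout 2 left 2, control 1 left 10 and control 2 left 6. No difference between these lists and the mitotic set was tested, so their counts stand side by side only.

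**Figure D4:**
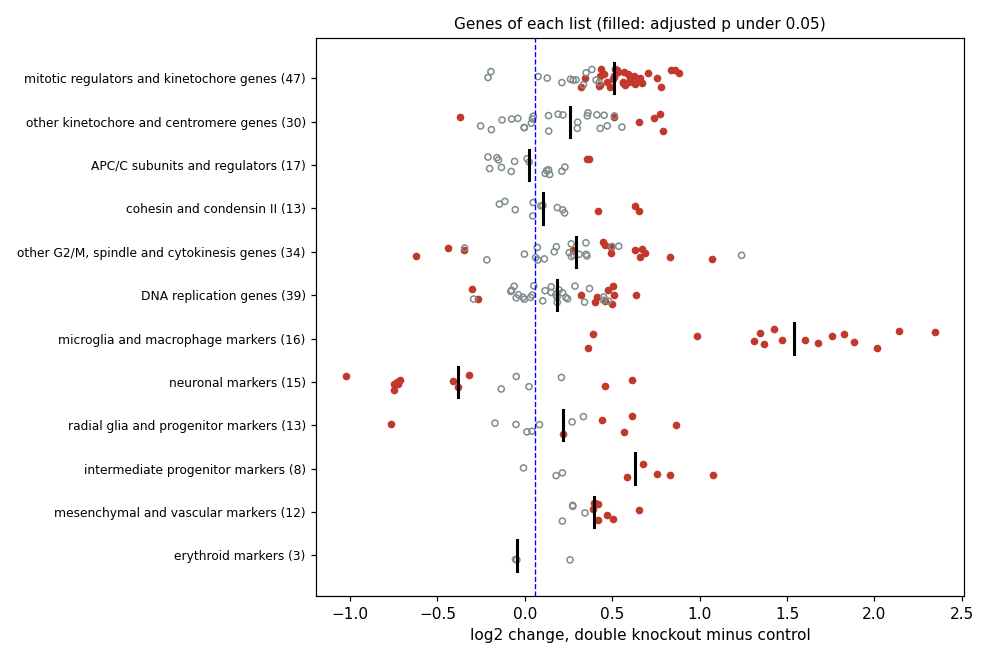
Log2 change (double knockout minus control) of each gene in the mitotic set and in 11 other lists, with the number of genes tested in brackets, filled points for an adjusted p under 0.05, a black bar at each list's median and a dashed line at 0.06, the median of all genes. The mitotic set has its median at 0.51, the APC/C list at 0.02, the microglia list at 1.54 and the neuronal list at -0.38.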

How the data were processed

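The deposited table holds MAS5 intensity values (signals on a linear scale) for 45101 probe sets. The submitters' processing notes name MAS5 5.0. Each array's mean after trimming 2% at either end was 1000 in the deposited values, so a shift common to most transcripts would not be seen. No genome build is named in the sources used here. The 64 array controls were left out.

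Probe sets were named through the platform annotation: 34945 had 1 symbol, 932 several and 9160 none. Changes were fitted on log2(signal + 16) in limma 3.58.1 (R 4.3.3), double knockout minus control, by lmFit and eBayes with a variance trend, with Benjamini-Hochberg adjustment over the 27022 probe sets whose mean log2 value exceeded the 40th percentile (7.41). No normalization between arrays was added. The number of arrays limits precision. Adding 16 understates changes of dim genes. The steps were tested on simulated data. Probe sets ending in _s_at or _x_at can read related transcripts.

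Members and lists were chosen with earlier results of these data known. All members are named, and of each other list at most the 4 largest changes past the threshold, genes completing a count of 5 or fewer, and Sox4 and Sox11. Anapc1 was named after its values were seen. Same-numbered arrays did not deviate together (r = 0.00283), so numbers were not taken as pairs.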

Additional observations from a re-analysis of the deposited data

How the results depend on the processing

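Member genes that rose numbered 34, and 14 without the variance trend and 20 to 32 with single arrays left out. Member probe sets that rose numbered 49, and 21 without the trend and 26 to 52 with arrays left out, and those that fell 0, with 0 or 1 when an array was left out. Other mitotic genes that rose numbered 21, and 9 without the trend and 9 to 29 with arrays left out. Those that fell numbered 4, and 1 with median centring, 1 with no signal filter, 0 without the trend and 1 or 2 with arrays left out. Sizes of single genes moved too: averaged over probe sets, Aspm was 0.12, Smc2 0.04, Spc25 0.27 and Top2a 0.26, against 0.51, 0.32, 0.60 and 0.53 at the brightest probe set, Bub1b was 0.22 without control 2 against 0.60, and Aurkb ranged from 0.49 to 1.06 with arrays left out. The median log2 change of the members was 0.45 to 0.57 with arrays left out. Its direction was the same under every alternative run, namely pseudocounts of 1 and 64, median centring, quantile normalization, no signal filter, a filter at the 60th percentile, no variance trend, robust eBayes, the replicate block, averaging the probe sets of a gene and no _s_at or _x_at probe sets. A threshold of 0.1 was also run for the counts.

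Single genes turned sign only among those that did not pass. With single arrays left out, Ncapd2 ranged from -0.50 (without knockout 1) to 0.11 (without knockout 2) and was 0.10 without control 1, Ncapg from -0.19 (without knockout 2) to 0.34, Cenpk from -0.06 (without control 2) to 0.48 and Cdca2 from -0.03 (without control 2) to 0.28. Averaged over probe sets, Bub3 was -0.05 and Cenpk -0.00, and Bub3 was -0.11 without _s_at and _x_at probe sets. With the replicate block 45 of 47 genes kept their side of the threshold, Cdc25c was lost (0.47) and Plk1 passed (0.41). Of the 34 that rose, 9 passed in every alternative run: Ccna2, Cdc25b, Birc5, Cdc20, Prc1, Anln, Smc4, Ncaph and Mki67. With no signal filter Tpx2, Nusap1, Cenpa, Cdc25c, Bub1b and Aurkb were lost, and Nek2 without _s_at and _x_at probe sets. Median centring moved the median of all genes by 0.041. An array left out leaves a lone array set against a pair and taken to vary like it. The causes of these changes were not tested.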
